A study of Mus musculus with 18 samples.

Results

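The 3 Notch receptors Notch1, Notch2 and Notch3 and 5 of their ligands, the Delta-like genes Dll1, Dll3 and Dll4 and the Jagged genes Jag1 and Jag2, were followed in cells sorted from the embryonic mouse spinal cord. They were taken by gene symbol from the authors' deposited coexpression table and are 8 of the 23803 named genes tested. Each was read by 1 probe set of the array. All samples came from Swiss-Webster mice with the Aldh1l1-GFP transgene, whose cords were dissociated with papain and flow sorted. In these mice green fluorescent protein (GFP) is driven by the promoter of Aldh1l1, a folate enzyme expressed by astrocytes and by the radial glia they come from. GFP-positive cells were sorted at 3 ages given in embryonic days: E13.5 with 3 arrays, E14.5 with 2, and a late age with 3, of which 2 were from E17.5 and 1, replicate 3, from E18.5. The comparison groups were all live cells of the cord, with 3 arrays per age and again replicate 3 of the late age from E18.5. All live cells carried the same transgene and include the GFP-positive cells themselves. One label field speaks of a GFP-negative sort instead, while titles and cell type fields give all live cells or whole cord. The titles call the replicates biological, and the number of embryos behind each is not stated.

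Notch receptors are membrane proteins that are cut when a ligand on a neighbouring cell binds them, and the freed intracellular part joins RBPJ at target genes such as those of the Hes and Hey families. In the developing nervous system Dll1 and Jag1 are ligands on cells in or leaving the ventricular zone, and signalling through Notch keeps neighbouring progenitors undifferentiated. The same receptors take part in the later step from radial glia to astrocytes, and in blood vessels Notch3 is known from mural cells and Dll4 from endothelium.

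Aldh1l1 itself checked the sort. Its log2 level was 9.85 to 10.08 in the GFP-positive arrays and 7.60 to 7.90 in all live cells at E13.5, and 9.93 to 10.28 against 8.91 to 9.39 at the late age, so the groups did not overlap and lay closer together late. Arrays of a group correlated at r = 0.985 to 0.994, and array medians lay between 7.73 and 7.82. The makeup of the live cells also moved with age. On the linear scale, the summed level of 8 neuron markers was 21311 to 22974 in all live cells at E13.5 and 7197 to 9889 late, and in the GFP-positive cells it was 9564 to 10651 and then 2534 to 2795. The sum of 12 endothelial markers in all live cells went from 1933–1972 to 3164–3437, and that of 9 mural cell markers from 2944–3258 to 6744–10724. For 10 microglia and macrophage markers it went from 3823–4342 to 10370–17756, and for 8 oligodendrocyte lineage markers from 2297–2359 to 5921–8036. That of 10 astrocyte and radial glia markers went from 18083–18850 to 25364–27122. The sum of 7 erythroid markers was 27787–33619 and then 21015–24904, against 1185–1697 and 1314–1667 in GFP-positive cells. Across these bulk samples, fewer cells of a type and less RNA per cell cannot be told apart.

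At E13.5, 4 of the 8 genes were higher in GFP-positive cells, namely all 3 receptors and the ligand Jag1, and 0 were lower. Over all genes 11.1% were higher and 7.99% lower at an adjusted p under 0.05 by limma, and 0 of the 8 were lower at an unadjusted p under 0.05. The median log2 difference of the 8 was 0.36, against -0.04 for all genes. Dll1, Dll3, Dll4 and Jag2 did not pass.

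Notch2 (probe set 10494595) is the receptor with the largest difference. Its log2 levels in the GFP-positive arrays at E13.5 were 9.26, 9.45 and 9.13, and in all live cells 8.28, 7.96 and 8.16. Every GFP-positive array lay above every array of live cells, by 1.14 ± 0.12 (SE, n = 3 and 3) on the log2 scale or 2.21-fold, with an adjusted p of 3.46e-06. That difference was above those of 99.1% of all genes tested.

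Notch1 (probe set 10481056), the receptor most studied in neural progenitors, read 9.30, 9.55 and 9.32 in GFP-positive cells and 8.65, 8.56 and 8.54 in all live cells at E13.5. The groups were apart by 0.81 ± 0.11 (1.76-fold, adjusted p = 3.27e-05). Notch3 (probe set 10449775) read 8.67, 8.81 and 8.90 against 8.35, 8.17 and 7.999. Its groups did not overlap either, and the difference was 0.62 ± 0.09 (1.54-fold, adjusted p = 0.000125). Notch3 is also a receptor of mural cells, whose 9 markers summed to less in GFP-positive cells at E13.5 (1820 to 2016) than in all live cells (2944 to 3258). Of the 9, 3 were lower, among them Rgs5 by far the most (-3.19 ± 0.26), and 1, Pdgfrb, was higher (0.48 ± 0.13), and their part in the values of Notch3 was not tested.

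Jag1 (probe set 10488060), a Jagged ligand known in the embryonic cord from bands of ventricular-zone progenitors, read 8.66, 8.96 and 9.11 in GFP-positive cells and 8.20, 8.02 and 7.89 in all live cells at E13.5. All 3 GFP-positive arrays were above the live cells, by 0.87 ± 0.16 (1.83-fold, adjusted p = 0.000668).

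**Figure D1:**
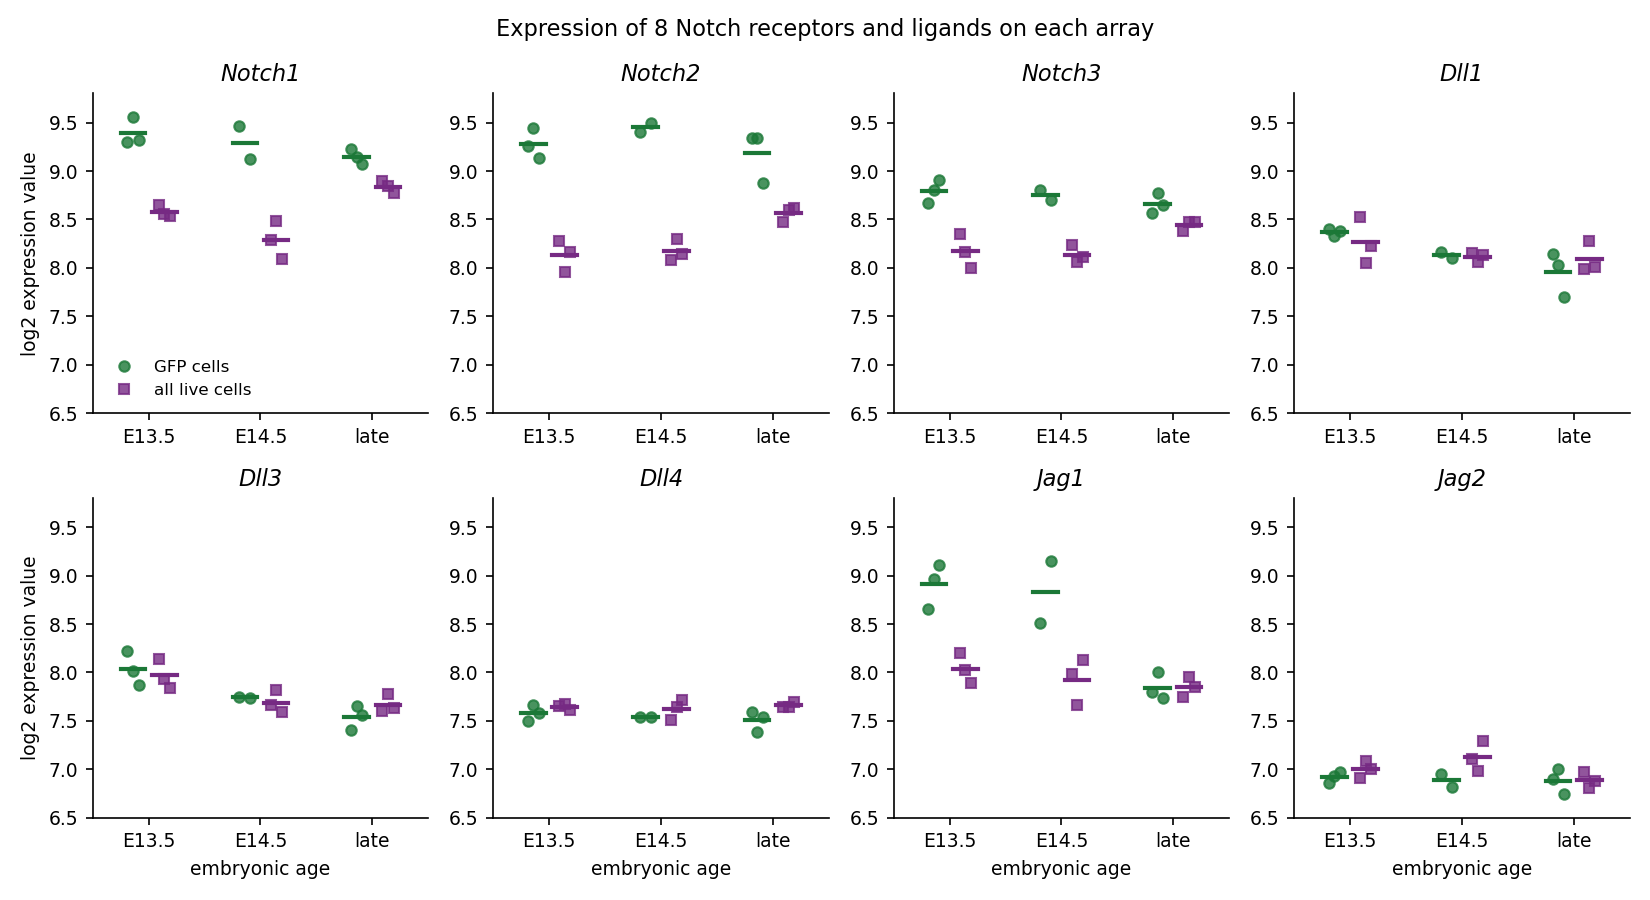
Log2 RMA level (vertical axis) of each of the 8 genes in every array, by sort and age; each point is 1 array, bars are group means, and the vertical axis does not start at 0. The receptors sit higher in GFP-positive cells at every age, although late only Notch2 passed the test. Jag1 in GFP-positive cells goes from 8.66–9.11 at E13.5 to 7.73–8.001 late, where it overlaps all live cells.

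At E14.5 the same 4 genes were higher and 0 were lower, where 10.3% of all genes were higher and 8.21% lower by limma, and 1 of the 8 was lower at an unadjusted p under 0.05. Notch2 was 9.41 and 9.49 in the GFP-positive arrays and 8.08, 8.30 and 8.15 in all live cells. The difference was 1.28 ± 0.14 (2.42-fold, adjusted p = 3.09e-06). Notch1 was 9.47 and 9.12 against 8.29, 8.48 and 8.09, a difference of 1.01 ± 0.12 (2.01-fold, adjusted p = 9.74e-06). Both GFP-positive arrays lay above all live cells for these receptors, as they did for Notch3, which was 8.80 and 8.70 against 8.23, 8.06 and 8.11 (0.62 ± 0.11, adjusted p = 0.000355).

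Jag1 at E14.5 read 8.51 and 9.15 in the GFP-positive arrays and 7.99, 7.67 and 8.13 in all live cells, with a difference of 0.90 ± 0.18 (adjusted p = 0.00124). The 2 GFP-positive arrays were further apart from each other than the 3 arrays of live cells. Without GFP-positive replicate 2 the difference was 0.58 with an adjusted p of 0.0562, so the call at this age rested on that array. Jag2 (probe set 10402808) was the gene lower at an unadjusted p. Its levels were 6.95 and 6.82 against 7.11, 6.98 and 7.29, which do not overlap, but the difference of -0.24 ± 0.10 had an adjusted p of 0.122.

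At the late age 1 of the 8 genes, Notch2, was higher and 0 were lower, against 4.6% higher and 4.68% lower among all genes by limma. At an unadjusted p under 0.05, 3 of the 8 were higher and 0 lower. Notch2 read 9.34, 9.34 and 8.88 in GFP-positive cells and 8.47, 8.60 and 8.62 in all live cells, a difference of 0.62 ± 0.12 (1.54-fold, adjusted p = 0.00309). The lowest of the 3 GFP-positive values came from the E18.5 array and was still above every array of live cells.

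The other receptors did not pass the test late. Their groups did not overlap, and neither did those of Dll4 in the other direction. How many of all genes lacked overlap is not given here, so no result is read from it. Notch1 was 9.23, 9.14 and 9.08 against 8.90, 8.85 and 8.77, a difference of 0.31 ± 0.11 with an adjusted p of 0.0861. Notch3 was 8.57, 8.77 and 8.65 against 8.39, 8.47 and 8.48, a difference of 0.22 ± 0.09 with an adjusted p of 0.181. For Jag1, the GFP-positive values 7.80, 8.001 and 7.73 overlapped the live-cell values 7.75, 7.95 and 7.85. Its difference late was -0.01, with a 95% interval of -0.34 to 0.33.

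**Figure D2:**
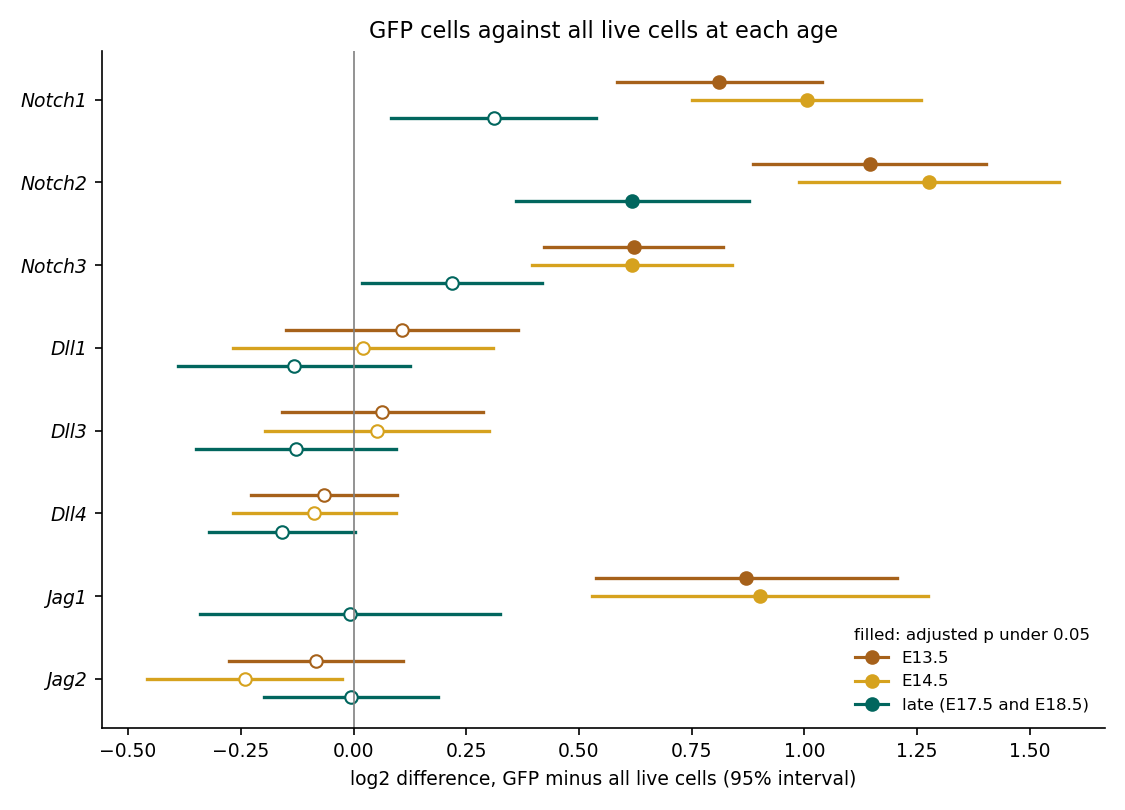
Log2 difference between GFP-positive cells and all live cells (horizontal axis) for the 8 genes at the 3 ages, with 95% intervals from limma; filled points have an adjusted p under 0.05. Notch1, Notch2, Notch3 and Jag1 are filled at E13.5 and E14.5, and Notch2 alone late.

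In GFP-positive cells 3 of the 8 genes, the ligand genes Jag1, Dll3 and Dll1, fell between E13.5 and the late age, and 0 rose. Among all genes 8.97% were lower and 7.33% higher by limma, and at an unadjusted p under 0.05 4 of the 8 were lower and 0 higher. The fourth was the receptor Notch1, which differed by -0.24 without overlap (adjusted p = 0.144), and whether ligands and receptors changed differently was not tested. These comparisons use the same GFP-positive arrays as those above.

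Jag1 fell by 1.07 ± 0.16 on the log2 scale (2.09-fold lower, adjusted p = 0.000141), from 8.66, 8.96 and 9.11 at E13.5 to 7.80, 8.001 and 7.73. Every late array was below every E13.5 array. From E14.5 to the late age it fell by 0.99 ± 0.18 (adjusted p = 0.00215), the only one of the 8 to change in that interval, in which 3.31% of all genes were lower and 2.98% higher. With only the arrays of those 2 groups in the fit the adjusted p was 0.0505, and without GFP-positive E14.5 replicate 2 the difference was -0.66 with an adjusted p of 0.0795. In all live cells Jag1 went from a mean of 8.04 to 7.85, a difference of -0.19 with a 95% interval of -0.52 to 0.15.

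The change in the GFP-positive cells was therefore set against that in all live cells in 1 test of the interaction. For Jag1 the GFP-to-live difference shrank by 0.88 ± 0.22 from E13.5 to the late age (adjusted p = 0.031), the only 1 of the 8 to pass and downward, where 3% of all genes passed downward and 1.6% upward. The call was lost without the E18.5 arrays (-0.82, adjusted p = 0.101). It was also lost in 8 of 17 fits that left out 1 array, with adjusted p-values up to 0.084, when GFP-positive E13.5 replicate 2 (-0.85) or 3 (-0.78), live-cell E13.5 replicate 2 (-0.87) or 3 (-0.81), GFP-positive late replicate 1 (-0.86) or 3 (-0.82), or live-cell late replicate 2 (-0.83) or 3 (-0.88) was absent. The sort gene Aldh1l1 moved further in the same test, by -1.22 ± 0.17 (adjusted p = 0.000457). Of the 10 astrocyte and radial glia markers, which include it, 3 passed downward and 3 upward. The same test gave -0.50 ± 0.15 for Notch1 (adjusted p = 0.0743), -0.53 ± 0.17 for Notch2 (adjusted p = 0.102) and -0.40 ± 0.13 for Notch3 (adjusted p = 0.103). Their 95% intervals were -0.82 to -0.18, -0.89 to -0.16 and -0.68 to -0.12. At an unadjusted p under 0.05, 4 of the 8, Jag1 and the 3 receptors, were lower and 0 higher. A smaller receptor difference at the late age thus did not pass the adjusted threshold in the main fit. With only the 4 groups of the contrast in the fit Notch1 passed (adjusted p = 0.0337). Without live-cell E13.5 replicate 1 Notch3 did (-0.49, adjusted p = 0.0475).

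Dll3 (probe set 10561376), a divergent Delta-like protein that in mouse acts inside the cell on Notch rather than as an activating ligand, fell in GFP-positive cells by 0.50 ± 0.11 (adjusted p = 0.00335). Its values were 8.23, 8.01 and 7.87 at E13.5, 7.75 and 7.73 at E14.5, and 7.40, 7.66 and 7.56 late. The 3 ages did not overlap, although E14.5 against E13.5 did not pass (-0.29, adjusted p = 0.312). All live cells read 8.14, 7.94 and 7.84 at E13.5 and 7.60, 7.77 and 7.63 late, a difference of -0.30 ± 0.11 with an adjusted p of 0.0515 that lay beside the threshold and passed without GFP-positive E13.5 replicate 1 (0.0383) or 3 (0.0435), live-cell E13.5 replicate 3 (0.0385), live-cell E14.5 replicate 2 (0.0485), GFP-positive late replicate 1 (0.0467) or live-cell late replicate 2 (0.0453). GFP-positive and live cells overlapped at all 3 ages, and at E13.5 they differed by 0.06 with a 95% interval of -0.16 to 0.29.

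Dll1 (probe set 10448034), the Delta ligand of differentiating neural precursors, fell in GFP-positive cells by 0.41 ± 0.12 (adjusted p = 0.0273). Its values were 8.40, 8.33 and 8.38 at E13.5, 8.17 and 8.11 at E14.5, and 8.15, 8.03 and 7.70 late. The lowest was the E18.5 array. This call was the least stable of the 8 genes' calls in this contrast. The adjusted p was 0.0513 with only the arrays of the 2 groups in the fit and 0.143 without GFP-positive late replicate 3 (-0.29). It was 0.0846, 0.0572 and 0.0704 without GFP-positive E13.5 replicate 1 (-0.40), 2 (-0.43) and 3 (-0.41). In all live cells Dll1 read 8.53, 8.05 and 8.22 at E13.5 and 7.99, 8.27 and 8.01 late, and these overlapped (-0.18, adjusted p = 0.381).

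Beside these values, 11 of 12 proneural and newborn-neuron genes fell in GFP-positive cells between E13.5 and the late age and 9 of 12 in all live cells. Of all genes 8.97% and 9.99% fell by limma. The 12 include Mfng, which is also among the 47 pathway genes below. The list had a median log2 difference of -0.81 in GFP-positive cells, where that of all genes was 0.05. The largest falls were those of Neurod4 (-3.82 ± 0.18), Nhlh1 (-3.60 ± 0.16) and Olig3 (-3.35 ± 0.21), the first 2 of them transcription factors of newborn neurons and the last one of dorsal progenitors. At E13.5, 4 of the 12 had been higher in GFP-positive than in live cells, among them Neurod4 (1.21 ± 0.18) and Olig3 (1.04 ± 0.21), and 1, Neurod1, lower (-1.10 ± 0.20). Over all genes 11.1% were higher and 7.99% lower at that age. Of the 8 neuron markers, 7 fell in the GFP-positive cells. The part of this shift in the values of Dll1, Dll3 and Jag1 was not tested.

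Dll4 (probe set 10474958), a Delta ligand best known from endothelial tip cells, varied little. Over all 17 arrays it lay between 7.38 and 7.71, a range of 0.33 on the log2 scale, and at the 37.7th to 48.1st percentile of its array. It did not pass in any of the 8 contrasts. At the late age its GFP-positive values of 7.59, 7.38 and 7.55 lay under the live-cell values of 7.65, 7.65 and 7.70, but the difference of -0.16 ± 0.08 had an adjusted p of 0.248. At that age 9 of 12 endothelial markers were lower in GFP-positive cells, where 4.68% of all genes were lower. The summed level of the 12 was 1751 to 1768 against 3164 to 3437 in live cells. Of the 12, 11 were under the array median in GFP-positive cells and 5 in live cells. In all live cells 9 of the 12 rose from E13.5 to the late age, where 10.2% of all genes rose. Dll4 differed there by 0.02 with a 95% interval of -0.15 to 0.18.

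Jag2, a second Jagged ligand, lay at the 22nd to 33.9th percentile of its array and between 6.75 and 7.29 on the log2 scale. It also passed in 0 of the 8 contrasts. Whether the probe sets of Dll4 and Jag2 were above background was not measured here.

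Between E13.5 and E14.5 0 of the 8 genes changed in GFP-positive cells by limma, where 0.912% of all genes were higher and 0.588% lower. At an unadjusted p under 0.05, 1 of them, Dll3, was lower and 0 were higher.

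In all live cells Notch2 rose by 0.43 ± 0.12 from E13.5 to the late age (1.35-fold, adjusted p = 0.0174), the only 1 of the 8 to pass. Of all genes 10.2% rose and 9.99% fell. Its values went from 8.28, 7.96 and 8.16 to 8.47, 8.60 and 8.62, which do not overlap. The adjusted p was 0.0943 without live-cell E13.5 replicate 2 (0.35), 0.0524 without late replicate 2 (0.41) and 0.0561 without late replicate 3 (0.40). Notch3 went from 8.35, 8.17 and 7.999 to 8.39, 8.47 and 8.48 (0.27 ± 0.09, adjusted p = 0.0516), and passed without live-cell E13.5 replicate 1 (0.36, adjusted p = 0.0151). Notch1 differed by 0.26 ± 0.11 (adjusted p = 0.11). At an unadjusted p under 0.05, 3 of the 8, the receptors, were higher and 1, Dll3, was lower. Over the same interval 7 of 9 mural, 7 of 10 astrocyte and radial glia, 9 of 10 microglia and macrophage and 8 of 8 oligodendrocyte lineage markers rose in the live cells, with list medians of 0.87, 1.07, 1.79 and 1.09 on the log2 scale. In the second list 1 marker, Nes, fell (-0.42), in the third 1, Mrc1 (-0.69), and in the other lists 0. The part of these markers in the values of the 3 receptors was not tested. In GFP-positive cells these receptors differed by -0.24 (Notch1, adjusted p = 0.144), -0.09 (Notch2, adjusted p = 0.658) and -0.13 (Notch3, adjusted p = 0.387).

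**Figure D3:**
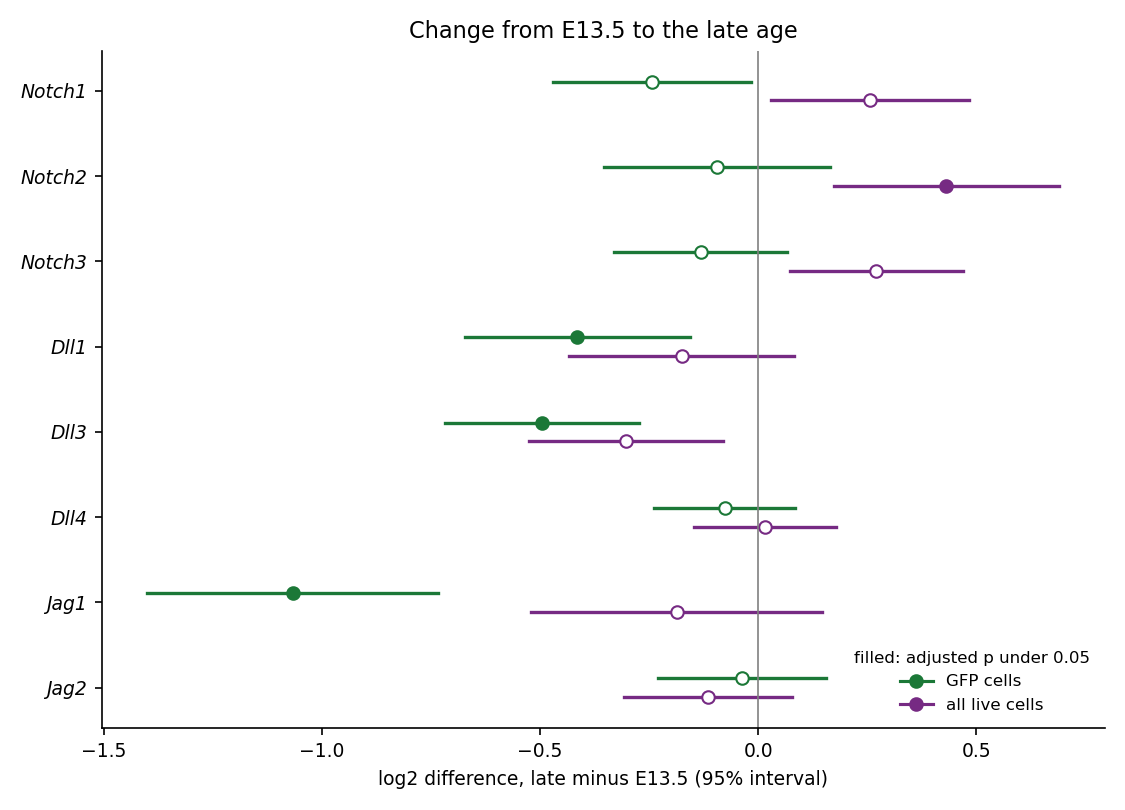
Log2 difference between the late age and E13.5 (horizontal axis) in GFP-positive cells and in all live cells for the 8 genes, with 95% intervals from limma; filled points have an adjusted p under 0.05. In GFP-positive cells Jag1 (-1.07), Dll3 (-0.50) and Dll1 (-0.41) are filled, and in all live cells Notch2 (0.43).

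The start regions of Jag1, Dll3 and Dll1, the genes that fell in GFP-positive cells, are shown here. The motifs were chosen with earlier results of these data known, and a link between motif and fall was not tested. The sequences are RefSeq's for GRCm38.p6, 250 bases up to the annotated start, 5′ to 3′ on the gene's strand, and all 8 genes matched, Dll1 with 2 starts. Capitals mark the E-box CANNTG, the letters read by basic helix-loop-helix factors such as the proneural proteins, which is the same on both strands. The windows of Dll1 lie on the minus strand at chr17:15375824-15376073 and chr17:15376933-15377182, that of Dll3 on the minus strand at chr7:28301786-28302035 and that of Jag1 on the minus strand at chr2:137116521-137116770.
Dll1, first window: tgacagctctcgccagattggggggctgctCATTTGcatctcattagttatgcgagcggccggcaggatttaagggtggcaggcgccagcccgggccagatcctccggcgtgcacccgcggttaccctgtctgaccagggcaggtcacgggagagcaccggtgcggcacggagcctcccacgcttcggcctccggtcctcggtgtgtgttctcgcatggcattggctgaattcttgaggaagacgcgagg
Dll1, second window: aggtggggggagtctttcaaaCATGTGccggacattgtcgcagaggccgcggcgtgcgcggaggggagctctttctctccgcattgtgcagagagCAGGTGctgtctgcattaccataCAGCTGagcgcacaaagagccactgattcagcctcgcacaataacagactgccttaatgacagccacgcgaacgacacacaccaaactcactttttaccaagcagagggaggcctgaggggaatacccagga
Dll3: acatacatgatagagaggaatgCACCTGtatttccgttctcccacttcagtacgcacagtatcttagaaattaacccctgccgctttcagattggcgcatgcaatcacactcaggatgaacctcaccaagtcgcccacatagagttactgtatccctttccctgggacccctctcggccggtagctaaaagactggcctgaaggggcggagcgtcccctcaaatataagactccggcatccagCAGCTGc
Jag1: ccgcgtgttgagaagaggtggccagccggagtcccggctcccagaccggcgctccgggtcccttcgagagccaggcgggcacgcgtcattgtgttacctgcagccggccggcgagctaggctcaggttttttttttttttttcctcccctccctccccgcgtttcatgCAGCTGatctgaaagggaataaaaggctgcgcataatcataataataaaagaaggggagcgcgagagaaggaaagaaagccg
Dll1 held 1 match in its first window and 3 in the second, Dll3 held 2 and Jag1 held 1, while the windows of Notch1, Notch2, Notch3, Dll4 and Jag2 held 0. The E-box was thus found for 3 of the 8 genes, with Dll1 read over 2 windows. Of all 32851 such windows, 66.2% held at least 1, so a match is common. The core of the RBPJ motif, TGGGAA, read on both strands, was in 0 of the 9 windows and in 21.6% of all windows. A match is a description of letters and not a site that was shown to be bound.

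The receptors' windows were rich in the GC box GGGCGG, the motif of Sp factors, here counted on both strands and with overlapping matches. Notch1 and Notch2 held 5 each and Notch3 held 4, as did Jag2 with 5 and Dll4 with 2. Dll3 held 1 and Dll1 and Jag1 held 0. Of all windows 32.7% held at least 1. The window of Notch2, the receptor with the largest difference, lies on the plus strand at chr3:98013288-98013537, with GGGCGG or its complement CCGCCC in capitals.
Notch2: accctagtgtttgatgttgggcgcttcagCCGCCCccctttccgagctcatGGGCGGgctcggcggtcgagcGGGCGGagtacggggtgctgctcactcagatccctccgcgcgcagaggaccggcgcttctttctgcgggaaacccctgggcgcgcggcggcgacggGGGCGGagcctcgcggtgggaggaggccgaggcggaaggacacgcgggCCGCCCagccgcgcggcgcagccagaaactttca
This window was 72% G and C, against a median of 52.4% over all windows.

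The other genes of the pathway were read as fixed lists of 47 genes, which do not include the 8 above. At E13.5, 12 of the 47 were higher in GFP-positive cells and 0 lower by limma, with 3 lower at an unadjusted p under 0.05. At E14.5 14 were higher and 0 lower, and at the late age 4 and 0; at an unadjusted p under 0.05, 15 and 18 were higher and 3 and 0 lower. The background for the higher calls was 11.1%, 10.3% and 4.6%. The list's median log2 differences of 0.03, 0.07 and 0.11 lay near those of all genes (-0.04, -0.03 and 0.04).

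Of 7 target genes, 4 were higher at E13.5, with log2 differences of 1.36 ± 0.15 for Hey2, 1.08 ± 0.10 for Hey1, 1.04 ± 0.16 for Hes1 and 0.75 ± 0.12 for Nrarp. The first 3 are transcriptional repressors of the Hes and Hey families, and Nrarp is a feedback inhibitor of Notch signalling. Hes5, another Notch target of progenitors, differed by 0.06 with an adjusted p of 0.623. The other targets were Hes6 (0.02, adjusted p = 0.895) and Heyl, which went the other way (-0.19, adjusted p = 0.233). Heyl differed by -0.30 at E14.5 (adjusted p = 0.093). At the late age Hey2 (0.97) and Hey1 (0.47) were higher, and Hes1 differed by 0.48 with an adjusted p of 0.062. Hey2 rose with age in both sorts, by 1.15 ± 0.15 in GFP-positive cells and 1.54 ± 0.15 in all live cells.

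Proteases that cut the receptor were next. Of 10 genes, 4 were higher in GFP-positive cells at E13.5, namely Adam17 (0.87 ± 0.11), a metalloprotease that can cut the receptor's ectodomain, and the gamma-secretase subunits Ncstn (0.70 ± 0.12), Psenen (0.55 ± 0.10) and Aph1c (0.36 ± 0.12). Adam10, the main protease of ligand-bound Notch, differed by 0.22 at E13.5 (adjusted p = 0.174) and was higher at E14.5 (0.42 ± 0.12, adjusted p = 0.0158). Late, 0 of the 10 were higher or lower by limma, where 4.6% of all genes were higher, and 5 were higher at an unadjusted p under 0.05. The list's median difference was 0.20 at E13.5 and 0.18 late, and Aph1c differed late by 0.38 (adjusted p = 0.0533). Of the enzymes that add sugars to Notch, Lfng, the lunatic fringe glycosyltransferase, was higher at each age (0.59 ± 0.09 at E13.5, 0.47 ± 0.11 at E14.5 and 0.34 ± 0.09 late), while Mfng differed by 0.14 at E13.5 (adjusted p = 0.321). Among 13 trafficking and turnover genes Dtx4, a Deltex ubiquitin ligase, had the largest difference at E13.5 (1.13 ± 0.09), and its difference shrank by 0.81 ± 0.13 to the late age (adjusted p = 0.00176). Over that interval Dtx4 rose in all live cells (0.53, adjusted p = 0.000546) and differed by -0.28 in GFP-positive cells (adjusted p = 0.0518). Of the 47 genes 3 passed the interaction downward, Dtx4, Hey1 (-0.62) and Adam17 (-0.63), and 1 upward, Dtx1 (0.38). Of all genes 3% and 1.6% did.

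The DNA-binding partner of Notch, Rbpj, differed by 0.00 between sorts at E13.5 (adjusted p = 0.982). It fell to the late age in both sorts, by 0.80 ± 0.10 in GFP-positive cells and by 0.65 ± 0.10 in all live cells (adjusted p = 1.86e-05 and 9.56e-05). Of the 8 genes of the nuclear complex, Maml2, a Mastermind co-activator, was higher at E13.5 (0.62 ± 0.12). Notch4 and the atypical ligands Dlk1, Dlk2 and Dner passed in 0 of the contrasts by limma. From E13.5 to the late age in GFP-positive cells 4 of the 47 rose and 9 fell, where 7.33% of all genes rose and 8.97% fell. Among those that fell were Ncstn (-0.59), Adam10 (-0.42), Mfng (-0.36) and Mib1 (-0.34), a ubiquitin ligase of the ligands.

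**Figure D4:**
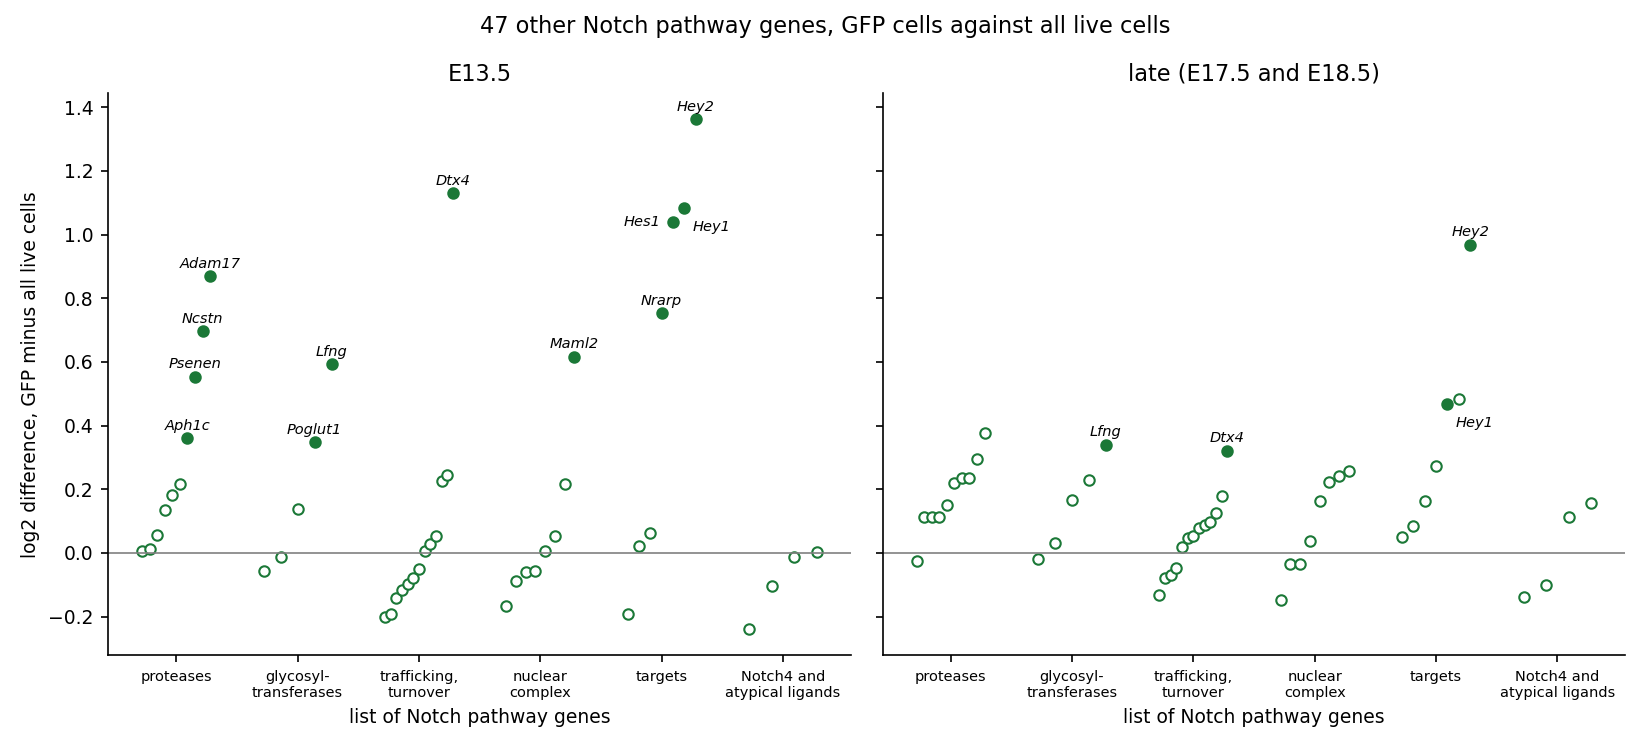
Log2 difference between GFP-positive and all live cells (vertical axis) for the 47 other Notch pathway genes by list, at E13.5 and late; each point is 1 gene and filled points, named, have an adjusted p under 0.05. At E13.5 the targets Hey2, Hey1 and Hes1 and the ubiquitin ligase gene Dtx4 lie above 1, and late Hey2 leads with 0.97.

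In these 17 arrays the receptors followed each other. Notch1 and Notch2 correlated at r = 0.914, Notch1 and Notch3 at 0.908 and Notch2 and Notch3 at 0.905, which share the group differences described above. Of deviations from group means the r were 0.376, 0.123 and 0.018. Dll1 and Dll3 correlated at 0.706 (0.261 of deviations), and Jag1 with Notch1, Notch2 and Notch3 at 0.548, 0.587 and 0.624 (-0.513, 0.141 and 0.478 of deviations). The genes whose values over the 17 arrays were most like each member's were Dennd5a for Notch2 (r = 0.978), Caskin2 for Notch3 (0.968), Iqgap2 for Notch1 (0.961), Mfap2 and Dbx1 for Jag1 (0.926 and 0.923), Trp53 for Dll1 (0.886), Rock1 for Dll3 (0.882), Miox for Jag2 (0.856) and Aim2 for Dll4 (0.774). These are the highest of 23803 genes and are descriptions of likeness only.

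The authors' deposited coexpression table gives each gene's correlation with the profile of every module, here called module membership. Module profiles over the linear levels of the 17 arrays were fitted to these deposited values, and probe sets were then matched to them. All 23890 genes matched, 135 of them to more than 1 probe set. This match is the step that named the probe sets, not a separate check. Dll1, Dll3, Dll4 and Jag2 were named by it alone. In the authors' deposited table Notch2 is a seed gene of the turquoise module, annotated by them as middle astrocyte, with a membership of 0.894, and Notch3 had its highest membership there too (0.848). Notch1 and Jag1 were highest in the red module, annotated as early, with 0.849 and 0.865 in the authors' deposited table. The receptors lay close in both modules, with Notch1 at 0.829 in turquoise and Notch2 and Notch3 at 0.87 and 0.808 in red. In the pink module, annotated as astrocyte mitosis, Notch1, Notch2 and Notch3 had 0.753, 0.644 and 0.711. The authors' deposited table assigns Notch3 and Dll4 to no module. Dll1 and Dll3 were highest in the black module, annotated as another early one (0.702 and 0.698 in the authors' deposited table). Dll4 (purple, 0.542) and Jag2 (blue, annotated as non-astrocyte, 0.676) were the exceptions in the authors' deposited table.

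**Figure D5:**
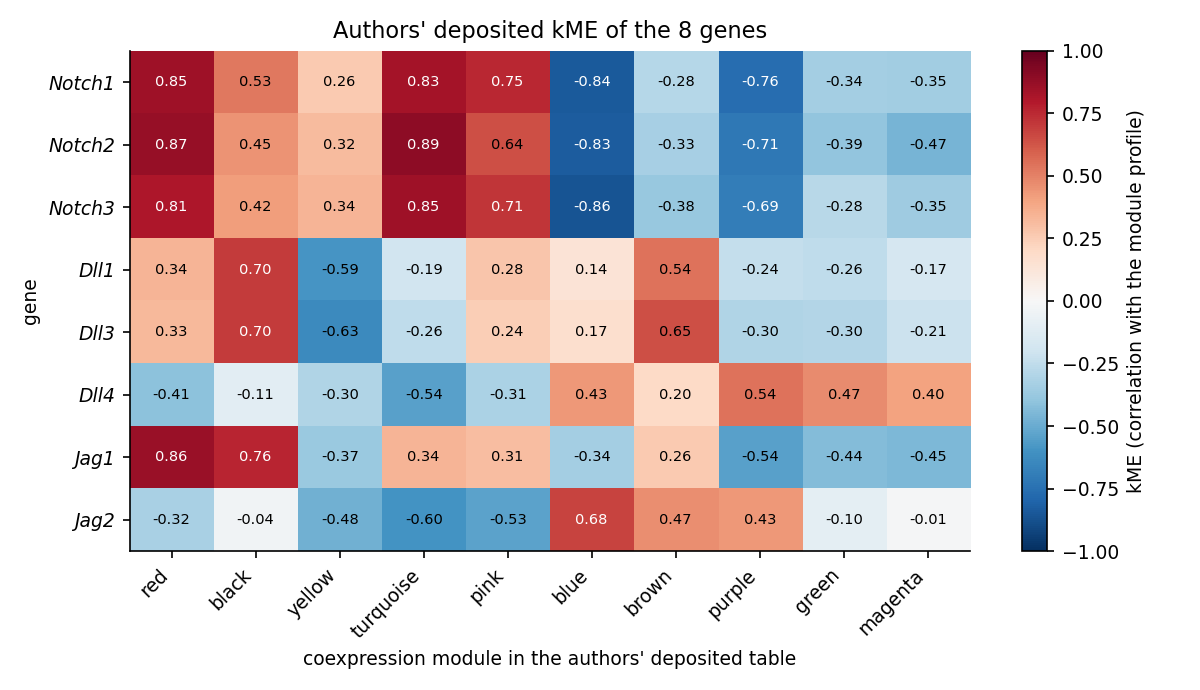
The authors' deposited module membership (correlation, colour scale) of the 8 genes in each of 10 modules. Notch1, Notch2 and Notch3 are high in the red and turquoise modules and negative in the blue one (-0.836, -0.831 and -0.861), while Dll1 and Dll3 are highest in the black one.

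The authors' deposited comparison table for E13.5 lists Notch2 at 2.21-fold (adjusted p = 0.0182), Jag1 at 1.83 (0.0311), Notch1 at 1.76 (0.0195) and Notch3 at 1.54 (0.019), folds equal to those above to the digits printed. For E14.5 the authors' deposited table lists only Notch1 of the 8, at 1.53-fold with an adjusted p of 0.143, against 2.01-fold here. All 552 log2 folds of that table matched, to within 0.0001, a GFP-positive mean that also takes in the array labelled as mislabeled, and 0 matched without it. The authors' deposited late table lists none of the 8, not even Notch2, which passed late here (adjusted p = 0.00309 by limma). The authors' deposited tables list 1875, 552 and 683 genes for E13.5, E14.5 and the late age. Their highest adjusted p-values are 0.1482, 0.1499 and 0.1499.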

How the data were processed

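RNA from sorted cells was amplified, biotin-labelled and hybridised to microarrays, 18 in all. Per the submitters' processing notes, the authors used oligo, RMA and limma and the build mm9, of which no version is given in the sources used here. Values in the deposited matrix are log2 levels after RMA, and the authors' comparison tables hold deposited log2 or linear fold values and adjusted p-values. The coexpression table's deposited module membership scores are correlations. Probe sets in the value table carry no gene names, so they were named by matching values to these tables within 1e-08, which named 24106 probe sets and 23803 genes (the probe set with the highest mean for the 216 genes with several). Of 1961 probe sets named by both kinds of table, 1933 had the same name. In 2 of the authors' tables, 6 value columns were not used.

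Group means of 6 groups were fitted with limma 3.58.1 in R 4.3.3 over 17 arrays, with 11 residual and 5.43 prior degrees of freedom, 8 two-sided contrasts and Benjamini-Hochberg adjustment over all 23803 genes (threshold 0.05). The number of arrays limits the precision. The E17.5 and E18.5 arrays form 1 late group because their replicate numbers run through both. An array whose title calls it mislabeled was put in no group. Alternatives were array scaling, quantile normalization, a filter on the dimmest 25% of genes, other probe set summaries, priors and samples in the fit, and leaving out arrays. The fit was tested on simulated data. The 8 genes and all gene and motif lists were chosen with earlier results of these data known. The named genes were the 8 members, Hes1, Hes5, Rbpj, Lfng and Mfng, the 3 largest called per list and contrast, and the 3 most alike in pattern, of which some are not printed; others, such as further called genes of a list, were named after their values were seen.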

Additional observations from a re-analysis of the deposited data

Results flagged for a closer look

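Jag1 stood out among the 8 genes because its difference between late and E13.5 arrays differed between the sorts. The GFP-to-live log2 difference moved by -0.88 ± 0.22, with a 95% interval of -1.35 to -0.41 and an adjusted p of 0.031 by limma. In GFP-positive cells all 3 late arrays lay below all 3 E13.5 arrays. In all live cells the change was -0.19 with an adjusted p of 0.485. The call does not hold in every fit, as described with the interaction above. It is also not particular to Jag1, as Aldh1l1 moved further the same way (-1.22, adjusted p = 0.000457 by limma). Of the 47 other pathway genes 3 passed downward and 1 upward, where 3% and 1.6% of all genes did.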

How the results depend on the processing

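Each of the 8 genes was refitted under 25 settings per contrast. The 15 results past the threshold kept their direction in all 375 of these fits, and 21 fits lost the call, all among 5 results named above; the other 10 results never lost it. Of the 49 results not past the threshold, 14 of 1225 fits passed and 35 changed sign. The number of genes called in GFP-positive against live cells late was 1023 instead of 2209 with only the 2 groups fitted, that of GFP-positive late against E14.5 was 546 instead of 1497, and that of GFP-positive E14.5 against E13.5 was 559 instead of 357 without the E18.5 arrays; the first 2 settings use fewer arrays to estimate the spread, and the cause of the third was not tested. Leaving out 1 array at a time gave 2935 to 4643 called genes for GFP-positive against live cells at E14.5 (lowest without GFP-positive E14.5 replicate 2), 102 to 470 for GFP-positive E14.5 against E13.5 and 660 to 1628 for late against E14.5 (both lowest without that same array).

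No result with a sign change was past the threshold, and the cause was not tested. For GFP-positive against live cells, Dll1 at E14.5 was -0.0143 with the replicate block, late Jag1 was 0.0009 with a common median, 0.0015 with quantile normalization and 0.0493 without the E18.5 arrays, and late Jag2 was 0.0028 with a common median and 0.0552 without the E18.5 arrays. Without the E18.5 arrays, GFP-positive late against E14.5 gave 0.0621 for Jag2, and late against E13.5 gave 0.0589 for Notch2 and 0.0298 for Jag2. In all live cells, late against E13.5 gave -0.0042, -0.0081 and -0.0016 for Dll4 with a common median, quantile normalization and without the E18.5 arrays. Leaving out 1 array spanned -0.0031 to 0.2392 for Dll1 and -0.031 to 0.1484 for Dll3 at E13.5, -0.0103 to 0.0521 for Dll1 at E14.5, and -0.0867 to 0.0478 for Jag1 and -0.0645 to 0.0609 for Jag2 late. For GFP-positive E14.5 against E13.5 it spanned -0.2737 to 0.072 for Notch1, -0.1033 to 0.0116 for Notch3, -0.4019 to 0.2394 for Jag1 and -0.0966 to 0.032 for Jag2. For later contrasts the ranges are -0.3159 to 0.0298 for Notch1, -0.0734 to 0.0299 for Dll4, -0.0688 to 0.0621 for Jag2 in GFP-positive late against E14.5; -0.1721 to 0.0589 for Notch2, -0.0955 to 0.0298 for Jag2 in late against E13.5; -0.0016 to 0.0317 for Dll4 in live cells late against E13.5.

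Correlations of the deviations from group means were -0.081 to 0.124 over 8 same-numbered pairs and -0.18 to 0.096 over 16 other pairs. With 2 or 3 arrays per group, these values cannot tell whether same-numbered samples shared a litter or preparation. Replicate 3 of both late groups came from E18.5. With the replicate block the number of called genes was 4455 at E13.5, and among the 8 genes the block changed 1 call, Dll3 in all live cells (adjusted p = 0.0462). That result also passed with a common median (0.0405), quantile normalization (0.0317) and the filter on dim genes (0.04), as did Notch3 there with the filter (0.0398). With a common median per array, 33.8% instead of 47.4% of the genes called in GFP-positive late against E14.5 were higher and 31.8% instead of 45% of the genes called in GFP-positive late against E13.5 were higher.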

Other observations

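The array whose title calls it mislabeled belongs to no group here. Its log2 levels were 8.13 for Notch1, 7.75 for Notch2, 7.93 for Notch3, 7.997 for Dll1, 7.49 for Dll3, 7.35 for Dll4, 7.48 for Jag1 and 7.18 for Jag2. In the authors' deposited E14.5 table the log2 fold of Notch1 is 0.62, against 1.01 without that array, while the deposited module table was matched with the 17 other arrays.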
